A study of Drosophila melanogaster with 26 samples.

Results

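Larvae homozygous for sima07607 were compared with w1118 control larvae, both kept in normoxia at the late third-instar stage (late-L3). All larvae of the study were chosen 10 to 4 h before pupariation by a partly cleared gut and were then held for 6 h at 25°C in normoxia or hypoxia. The comparison used 6 of the 26 arrays of the study, 3 of sima mutants and 3 of w1118, and every probe set that was not an array control, which were 18769 of 18952. No measured value was used to choose the arrays or the probe sets. Each array carried RNA from a pool of whole larvae, hybridised to an Affymetrix Drosophila Genome 2.0 array, whose probe sets each read the 3' part of 1 or more transcripts. The labels give no sex for the larvae.

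The sima allele is lethal and carries a P element within intron 1 of the gene, and the mutants came from parents that carried it over a TM3 balancer with a GFP marker. The w1118 controls were a separate stock with no balancer in the cross, so the effect of the allele and any other difference between the stocks cannot be told apart in these 6 arrays. Hypoxic larvae of both genotypes spent these 6 h in 4% oxygen (3 arrays of sima, 5 of w1118). The other arrays came from dERR,sima double mutants (Sima07607,dERR1/Sima07607,dERR2) and from dERR mutants (dERR1/dERR2), with 3 arrays of each in normoxia and 3 of each in hypoxia. The double mutants were used here because they hold the same sima allele, recombined onto the dERR chromosomes, in arrays that the normoxic comparison did not contain. The dERR mutants, without that allele, served as their comparison.

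The gene sima encodes the fly hypoxia-inducible factor α (HIFα), a transcription factor that pairs with Tango, the product of tgo, on DNA. In normal oxygen the prolyl hydroxylase encoded by Hph (fatiga) marks Sima for recognition by Vhl and destruction by the proteasome, and when oxygen falls Sima accumulates and switches on genes for oxygen delivery and metabolism. A comparison in normoxia therefore asks what the loss of sima changes in larvae that were not challenged with low oxygen.

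The deposited values are intensities on a linear scale, and levels are given below as their log2. The 6 arrays had median intensities of 39.9 to 41.5 in sima mutants and 45.2 to 45.4 in w1118. Pearson correlations over all probe sets were 0.987 to 0.994 between arrays of sima mutants, 0.991 to 0.997 between arrays of w1118 and 0.965 to 0.980 between the genotypes. Some gene lists mark late larvae. The mean of 3 fat body storage protein genes was 14.08 to 14.16 in sima mutants and 14.07 to 14.21 in w1118. That of 11 salivary gland glue genes was 10.88 to 11.54 in sima mutants and 11.03 to 11.23 in w1118. Single glue genes differed by -1.53 to 2.00, so their mean can hide opposite changes. That of 9 late puff 71E genes was 4.49 to 4.67 in sima mutants and 4.67 to 5.54 in w1118. Of these 9, 7 were lower in sima mutants. A probe set was called changed when it differed at least 1.5-fold with an adjusted p under 0.01. These p values come from limma with 1 model of all 26 arrays in 8 groups, adjusted by Benjamini-Hochberg over all 18769 probe sets. The storage protein, glue and late puff lists held 0 calls. The late puff gene Eig71Ea was 4.78 to 5.38 in sima mutants and 5.92 to 8.27 in w1118 (adjusted p = 0.35). Eip78C, an ecdysone response gene, was 4.52 to 6.07 in sima mutants and 6.30 to 8.515 in w1118 (adjusted p = 0.21). Whether the genotypes were matched in stage was not tested. The replicates are labelled biological, and their number, 3 against 3, limits the precision of every value.

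The sima transcript was measured first, since it checks the labels. Its level was 5.58, 5.55 and 5.69 in sima mutants, against 7.88, 7.63 and 7.91 in w1118. All 3 mutant arrays lay far below all 3 controls, and the difference was -2.20 (SE 0.17, adjusted p = 2.51e-08). The transcript was also lower on the other mutant arrays, by -2.63 in hypoxia, -1.95 for dERR,sima against dERR in normoxia and -2.52 for the same genotypes in hypoxia.

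The partner and the regulators of Sima did not pass the test in normoxia. tgo was 8.04, 8.33 and 7.97 in sima mutants and 8.04, 8.03 and 8.06 in w1118, a difference of 0.07 (SE 0.16, adjusted p = 0.84). Vhl was 7.24, 7.39 and 6.96 in sima mutants and 7.36, 6.99 and 7.07 in w1118, a difference of 0.06 (SE 0.15, adjusted p = 0.87). For both genes the groups overlapped, and both differences turned negative when sima replicate 2 was left out (-0.04 each). Hph had 2 probe sets, and both were lower in every mutant array without reaching the threshold. The brighter one was 8.13, 8.25 and 8.03 in sima mutants and 8.87, 8.46 and 8.71 in w1118 (-0.54, SE 0.19, adjusted p = 0.11), and the dimmer one was 5.09, 5.24 and 5.13 in sima mutants and 5.76, 5.65 and 5.80 in w1118 (-0.58, SE 0.15, adjusted p = 0.027).

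The normoxic differences of Hph and Vhl were smaller than those in hypoxia. In hypoxia the difference between sima mutants and w1118 was -2.97 and -2.69 for the 2 probe sets of Hph and -1.08 for Vhl. The test of the change in the difference between normoxia and hypoxia gave -2.43 (adjusted p = 1.53e-05) and -2.10 (adjusted p = 6.10e-06) for Hph and -1.14 (adjusted p = 0.00557) for Vhl. Of 7 known HIF targets measured, 0 were called in normoxia, with a median difference of -0.17. At an unadjusted p under 0.05, 1 was lower, as were 1876 of all 11981 genes measured. The lowest difference in the list was -0.54, the value given above for the brighter Hph probe set. Among these targets, bnl, the FGF ligand that guides tracheal branching, differed by -0.18 (adjusted p = 0.74), and its receptor btl by 0.41 (adjusted p = 0.30). In hypoxia 5 of the 7 were called lower and their median was -1.77, while 4.56% of all probe sets were called there in either direction. The plot of levels by array shows sima, tgo and Vhl beside the transcripts that changed most.

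**Figure D1:**
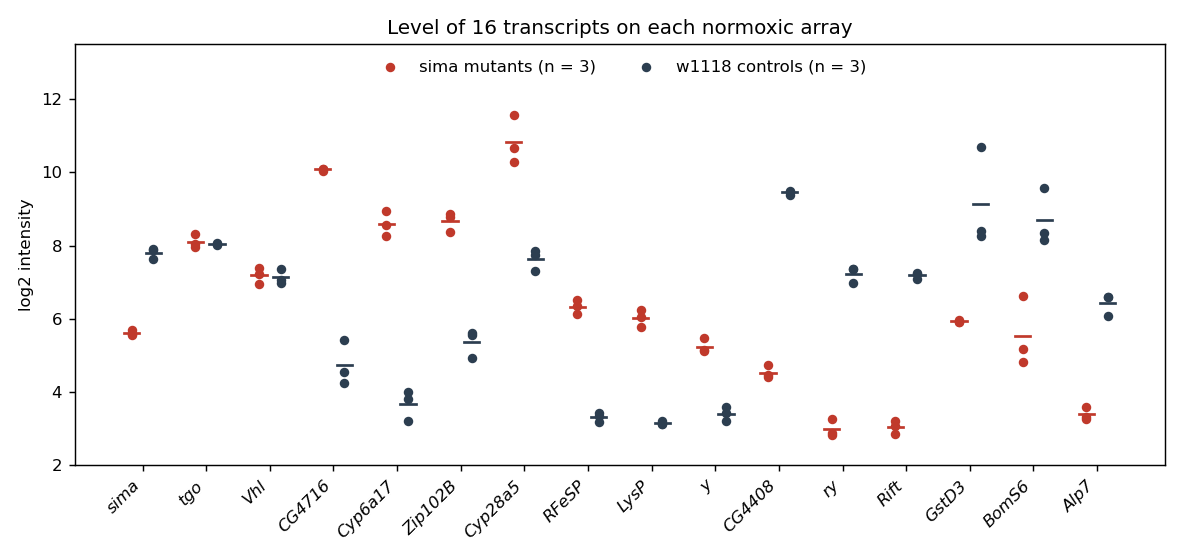
Level of 16 transcripts on each normoxic array, as log2 intensity, with sima mutants in red (n = 3) and w1118 in dark blue (n = 3). Points are arrays and bars are group means. The sima transcript and 13 others are separated between the genotypes, while tgo and Vhl overlap.

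Across the array, 275 probe sets were called, which is 1.47% of those tested. Of these, 177 were higher in sima mutants (0.943%) and 98 were lower (0.522%). Every called probe set was free of overlap between the 3 arrays of each genotype, but so were 7498 of all 18769 (39.9%), so the absence of overlap by itself does not mark a call. The median difference was 1.21 among the calls that were higher and -1.26 among those that were lower, against 0.07 over all probe sets. At least 4-fold differences were seen for 40 that were higher and 30 that were lower, and at least 8-fold differences for 13 and 14.

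How many probe sets were called varied with the arrays in the fit and with the scaling. A fit to the 6 arrays alone called 1937, of which 411 were higher and 1526 were lower, and it kept 258 of the 275. Centring each array on its median, which moved the median difference of all probe sets to 0.22, gave 227 higher and 72 lower in place of 177 and 98. With 1 array left out in turn, between 145 (without w1118 replicate 3) and 201 (without sima replicate 1) were called.

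The transcripts that rose most in sima mutants included genes of detoxification, digestion and transport along with several of unknown role. CG4716 was 10.05, 10.11 and 10.10 in sima mutants, against 4.55, 4.26 and 5.43 in w1118 (5.34, SE 0.85, adjusted p = 0.000596). Cyp6a17, a cytochrome P450, was 8.94, 8.57 and 8.26 in sima mutants, against 4.00, 3.82 and 3.21 in w1118 (4.92, SE 0.36, adjusted p = 1.90e-08). These were differences of 40.6-fold and 30.2-fold. Zip102B, a member of the zinc transporter family, was 8.79, 8.87 and 8.38 in sima mutants, against 5.57, 5.60 and 4.94 in w1118 (3.31, SE 0.29, adjusted p = 3.50e-07). RFeSP, the Rieske iron-sulfur protein of mitochondrial complex III, was 6.14, 6.34 and 6.51 in sima mutants, against 3.44, 3.18 and 3.35 in w1118 (3.01, SE 0.32, adjusted p = 4.41e-06). In each of these the lowest mutant array lay above the highest control array by more than 2 log2 units.

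Among the other large rises were CG14499 (4.63), CG15255 (4.31), CG10562 (4.01), lncRNA:CR32368 (3.42), Mctp (3.13), CG10559 (2.97), CG7768 (2.73) and Nazo (2.67), an antiviral gene of flies. The lncRNA, CG15255 and Mctp varied within the mutant group, where CG15255 ran from 7.03 to 9.14, against 3.87 to 4.19 in w1118. The lncRNA lost its call without any of 5 single arrays (adjusted p of up to 0.0254), CG15255 without any of 3 (up to 0.0144) and Mctp without 1 (0.0103). A probe set listed for no gene, 1640377_s_at, had the smallest p of the comparison, with 9.50, 9.57 and 9.53 in sima mutants and 4.76, 5.04 and 4.86 in w1118 (4.64, SE 0.14, adjusted p = 2.52e-15). The glucose transporter gene Glut1, which was chosen after its values were seen, was called higher with both of its probe sets (1.94 and 1.18).

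The transcripts that fell most were led by CG4408, a predicted carboxypeptidase. It was 4.41, 4.73 and 4.45 in sima mutants, against 9.47, 9.51 and 9.39 in w1118 (-4.93, SE 0.27, adjusted p = 1.68e-10), which was 30.4-fold lower. CG9040 was 5.23, 4.82 and 5.25 in sima mutants, against 10.48, 9.04 and 10.25 in w1118 (-4.83, SE 0.46, adjusted p = 1.13e-06). Further falls were seen for CG32198 (-4.47), CG8160 (-4.17), Nepl20 (-3.19), which encodes a neprilysin-like peptidase, CG34330 (-3.13), CG17105 (-3.11), Alp7 (-3.04), an alkaline phosphatase gene, CG17191 (-2.79), orb2 (-2.72), which encodes an RNA-binding regulator of translation, and CG13700 (-2.68). CG32198 lost its call with any 1 array left out, CG17105 without any of 5 single arrays and CG13700 without any of 4, with adjusted p values of up to 0.0440, 0.0604 and 0.0200.

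Another 3 probe sets lay in the lowest 25% of all probe sets on every array of 1 genotype and in the upper 50% on every array of the other. Rift was 3.07, 3.21 and 2.86 in sima mutants, against 7.23, 7.25 and 7.10 in w1118 (-4.14, SE 0.21, adjusted p = 9.66e-11). ry, the xanthine dehydrogenase gene, was 3.25, 2.88 and 2.82 in sima mutants, against 7.36, 6.98 and 7.35 in w1118 (-4.25, SE 0.30, adjusted p = 1.01e-08). Both were among the lowest probe sets of the array in the mutants and above its middle in the controls. LysP, a lysozyme gene, had the opposite pattern with 5.77, 6.04 and 6.23 in sima mutants, against 3.13, 3.12 and 3.22 in w1118 (2.86, SE 0.24, adjusted p = 9.96e-08).

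Gene families were described with 1 probe set for each gene, and over all 11981 genes measured 126 were called higher (1.05%) and 77 lower (0.643%), with a median difference of 0.04. At an unadjusted p under 0.05, 1366 of the 11981 genes were higher and 1876 were lower, so such a p is common. Cytochrome P450 enzymes, which oxidise hormones, plant toxins and insecticides, held 11 called higher and 1 called lower among 83 genes, with a family median of 0.19. Besides Cyp6a17, these were Cyp28a5 (3.21), Cyp6a8 (2.78), Cyp12a5 (2.52), Cyp9b2 (2.33), Cyp6a23 (2.25), Cyp4p2 (2.23), Cyp4e3 (2.16), Cyp9b1 (2.06), Cyp6d4 (1.65) and Cyp9c1 (1.56), of which those after Cyp12a5 were chosen after their values were seen. Cyp28a5 was 11.58, 10.68 and 10.27 in sima mutants, against 7.86, 7.30 and 7.75 in w1118. Cyp6a8 was 6.58, 7.43 and 7.93 in sima mutants, against 4.67, 4.33 and 4.60 in w1118. The member that fell was Cyp4p1 (-1.49), although its neighbour in name, Cyp4p2, was among those that rose. The family mean was 6.20 to 6.34 in sima mutants and 5.80 to 5.95 in w1118, and 8 to 9 members were called higher when any 1 array was left out.

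The conjugating enzymes that act after the P450s held calls in both directions. Of 34 glutathione S-transferases, GstT3 rose (2.21) and GstD3 and GstE5 fell, and the family median was 0.30. GstD3 was 5.96, 5.91 and 5.92 in sima mutants, against 8.26, 10.71 and 8.41 in w1118 (-3.20, SE 0.45, adjusted p = 0.000225), so the size of the fall owed part of its value to w1118 replicate 2, without which it was -2.41. GstE5 was 4.48, 4.99 and 5.03 in sima mutants, against 6.82, 6.53 and 6.85 in w1118 (-1.90, SE 0.41, adjusted p = 0.00997), and its call was lost with any 1 array left out. Of 35 UDP-glycosyltransferases, Ugt302C1 (1.27) and Ugt36A1 (1.05) were called higher and 0 were called lower, with a median of 0.29. Ugt302C1 lost its call without all but 1 of the single arrays, with an adjusted p of up to 0.0224, and Ugt36A1 without 2 of them, with an adjusted p of up to 0.0127.

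The list for purine breakdown and xanthine dehydrogenase held calls in both directions, and the call that was higher was not of a purine breakdown enzyme. Beside the fall of ry, AOX3, an aldehyde oxidase of the same enzyme family, was 8.55, 8.95 and 9.13 in sima mutants, against 7.82, 7.28 and 7.42 in w1118 (1.37, SE 0.19, adjusted p = 0.000144). The other 4 genes of that list were not called, and mal, which encodes the sulfurase that these enzymes need for their cofactor, differed by 0.39 (adjusted p = 0.22). In the list for heme and hemoglobin, Alas, the first enzyme of heme synthesis, was called higher among 9 genes (0.81, SE 0.15, adjusted p = 0.00265). The list as a whole did not rise, with a median of -0.23 and 6 of the 9 genes below 0. At an unadjusted p under 0.05, 2 of its genes were higher and 3 were lower. The call for Alas was lost without any of 5 single arrays, with an adjusted p of up to 0.0254. In the list for dopamine and cuticle tanning, y, needed for black pigment, was called higher among 10 genes. Its level was 5.13, 5.47 and 5.12 in sima mutants, against 3.43, 3.59 and 3.20 in w1118 (1.83, SE 0.24, adjusted p = 8.42e-05).

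Digestive genes had medians above 0 and few calls. Among 29 midgut proteases and lysozymes LysP was called higher and 0 were called lower, with a median of 0.30. Among 12 amylases and maltases 0 were called, with a median of 0.54. At an unadjusted p under 0.05, 5 of them were higher, against 1366 of all 11981 genes. Mal-A1, a maltase, was 9.30, 8.45 and 8.98 in sima mutants and 6.86, 7.15 and 7.87 in w1118 (1.62, SE 0.39, adjusted p = 0.022). The probe set shared by the 2 amylase genes Amy-p and Amy-d was outside the family list and was chosen after its values were seen. It was called higher, with 11.76, 10.70 and 10.91 in sima mutants and 9.67, 9.27 and 9.43 in w1118 (1.67, SE 0.31, adjusted p = 0.00272).

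Immune peptides held 1 call among 21 genes, BomS6, a bomanin induced by Toll signalling. It was 5.18, 6.63 and 4.81 in sima mutants and 9.57, 8.36 and 8.15 in w1118 (-3.15, SE 0.61, adjusted p = 0.00368), and the call was lost without any of 4 single arrays, with an adjusted p of up to 0.0349. The median of the immune list was 0.11.

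The lists for central metabolism and the hormone pathways held no calls in the shared model. In simulated data this model recovered 20.9% of 1.5-fold and 74.6% of 2-fold changes, so small changes can be missed. Of the genes of glycolysis (11), the TCA cycle (12), glycogen and trehalose (9), gluconeogenesis (4), the pentose phosphate pathway (4) and lipid storage and breakdown (12), 0 were called in the limma fit, with list medians between -0.02 and 0.27. At an unadjusted p under 0.05 there were 1, 3, 3, 1, 0 and 4 genes in these lists. Over all 11981 genes, 1366 were higher and 1876 were lower at that level. Ecdysone synthesis, the pathway of the moulting hormone, had 0 of 9 called and 5 at an unadjusted p under 0.05, with a median of 0.49. Its member nvd was 4.67, 5.56 and 5.23 in sima mutants and 4.58, 4.18 and 3.98 in w1118 (0.90, SE 0.23, adjusted p = 0.027), and spok was 8.11, 8.25 and 7.87 in sima mutants and 7.33, 6.73 and 6.55 in w1118 (1.21, SE 0.37, adjusted p = 0.075). The ecdysone response list had 0 of 17 called and a median of -0.12, and 101 cuticle protein genes had 0 calls and a median of 0.10. The fit to the 6 arrays alone called 2 genes higher in ecdysone synthesis and 1 lower in the ecdysone response. It also called 1 higher and 1 lower in glycogen and trehalose, 1 higher in lipid storage and breakdown, and 1 higher and 2 lower among the cuticle genes. In the other lists of this paragraph it called 0. Over all 18769 probe sets the same fit called 411 higher and 1526 lower. The plot of 11 gene lists shows list medians beside the single genes.

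**Figure D2:**
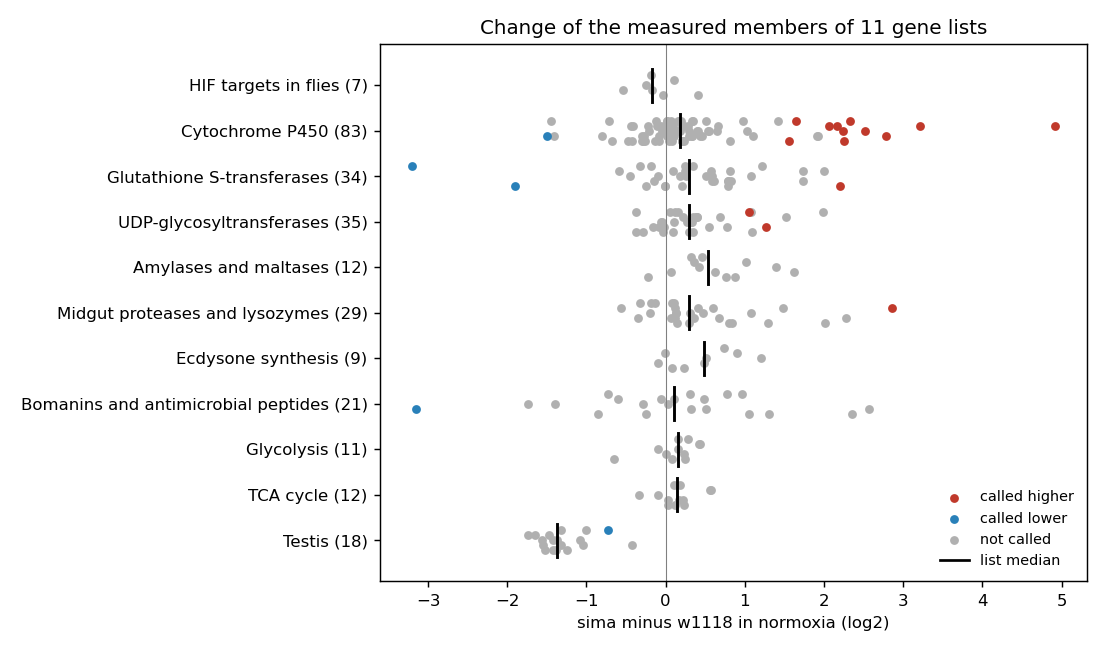
Difference of sima mutants minus w1118 in normoxia, in log2 units, for the measured genes of 11 lists, with the number measured in brackets. Red points were called higher, blue points called lower and grey points not called, and black bars are list medians. The P450 family holds 11 red points, and all 18 testis genes lie below 0.

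Testis genes were lower in sima mutants in normoxia, although nearly all of them missed the threshold. All 18 testis genes measured were lower in sima mutants with no overlap between the arrays, against 39.9% of all probe sets without overlap in either direction. The median difference was -1.37, although only aly, a regulator of meiosis genes in spermatocytes, was called (-0.73, SE 0.16, adjusted p = 0.00997), and that call was lost under both other scalings, with 16 added before the log2 and without any of 5 single arrays (adjusted p of up to 0.0688). At an unadjusted p under 0.05 17 of the 18 were lower, against 1876 of all 11981 genes. The gene betaTub85D, which encodes a testis tubulin, differed by -1.38, and the protamine gene ProtB by -1.73. In whole larvae, fewer cells of a type and less RNA per cell cannot be told apart. Since the labels give no sex, the share of males in each pool is not known either.

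The mean of the 18 testis genes was 7.02, 6.86 and 6.57 in sima mutants, against 7.89, 8.30 and 8.13 in w1118. In the hypoxic arrays it was 6.38, 7.33 and 7.71 in sima mutants and 7.22, 8.23, 8.04, 5.75 and 6.26 in w1118, so that the genotypes overlapped there. The spread within the hypoxic w1118 arrays enters the shared estimate of error. With the fit to the 6 normoxic arrays alone 17 of the 18 testis genes were called lower, beside 1526 of all 18769 probe sets. Without the hypoxic w1118 arrays 2 of the 18 were called lower, beside 258 of all 18769. Among markers of other cell types, the mean of the 29 midgut genes was 9.77 to 10.35 in sima mutants and 9.21 to 9.69 in w1118. LysP was called, and at an unadjusted p under 0.05 9 genes were higher and 0 lower. Over all 11981 genes, 1366 were higher and 1876 lower at that level. The muscle, hemocyte and neuron lists held 0 calls. The mean of the 11 muscle genes was 8.26 to 9.18 in sima mutants and 8.03 to 8.53 in w1118, that of the 13 hemocyte genes was 7.27 to 7.56 in sima mutants and at most 7.17 in w1118, and that of the 10 neuron genes was 5.68 to 5.92 in sima mutants and 5.56 to 5.64 in w1118. The part of the testis genes and of these markers in the other calls was not tested.

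**Figure D3:**
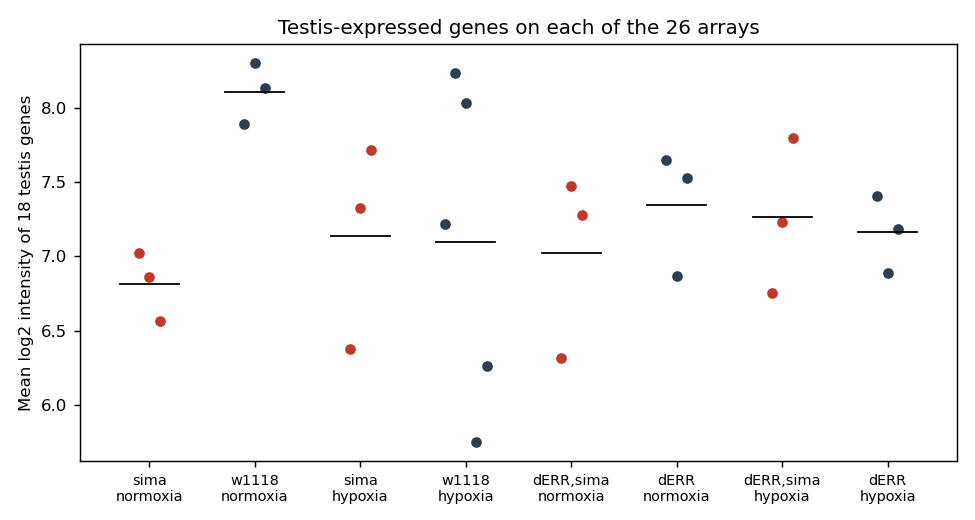
Mean log2 intensity of 18 testis genes on each of the 26 arrays, by genotype and oxygen. Points are arrays, in red for genotypes with the sima allele and in dark blue for those without it, and bars are group means. In normoxia the sima arrays lie between 6.57 and 7.02 and the w1118 arrays between 7.89 and 8.30, while the 5 hypoxic w1118 arrays run from 5.75 to 8.23.

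The same genotypes in hypoxia gave a second set of arrays for the normoxic calls. There, 856 probe sets were called (4.56%), and these included 157 of the 275 normoxic calls (57.1%, or 18.3% of the hypoxic calls), all in the same direction. The sign was shared by 269 of the 275 (97.8%). Over the 275 probe sets the Pearson correlation of the 2 sets of differences was 0.924, and over all 18769 it was 0.439. The points are genes from 2 contrasts with no array in common, although both were fitted with the same estimates of spread and compared the same pair of stocks. The test of the change in the difference between normoxia and hypoxia was called for 59 probe sets in all (0.314%) and for 4 of the 275, in each of which the hypoxic difference was nearer to 0 or of the other sign. They were 1640377_s_at (4.64 in normoxia and 3.56 in hypoxia), Glut1 (1.94 and 0.60), Wwox (0.99 and -0.39) and a probe set listed for no gene (-0.71 and 0.36), of which the last 3 were chosen after their values were seen.

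When the same sima allele was compared between dERR,sima and dERR larvae in normoxia, few of these probe sets were called. There, 46 probe sets were called (0.245%), of which 7 were normoxic calls in the same direction (2.55% of the 275) and 3 were normoxic calls in the opposite direction. The sign was shared by 121 of the 275 (44.0%), and the Pearson correlation over them was -0.04. In hypoxia, dERR,sima against dERR had 365 calls (1.94%), of which 31 were normoxic calls of sima against w1118 in the same direction (11.3% of the 275) and 5 in the opposite direction, and the sign was shared by 149 (54.2%). The probe sets 1637055_s_at and 1630728_a_at, listed for no gene, were called in the opposite direction in both: 1637055_s_at was lower in sima mutants than in w1118 (-3.91) and higher in dERR,sima than in dERR (3.37 in normoxia and 3.82 in hypoxia), and 1630728_a_at differed by -2.83, 1.37 and 1.84. The other opposite calls, named after their values were seen, were CG16723 in normoxia and Cyp4p1, Wwox and CG31809 in hypoxia.

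The difference between the 2 normoxic comparisons was tested itself. It was called for 221 probe sets (1.18%), of which 134 were among the 275, and in 133 of these the difference of dERR,sima against dERR was nearer to 0 or of the other sign. This test contains the 6 arrays of the normoxic comparison, so its calls are not independent of them. Cyp6a17 differed by 4.92 between sima and w1118 and by -1.53 between dERR,sima and dERR (change -6.45, adjusted p = 1.23e-07), and CG4716 by 5.34 and -1.15 (change -6.50, adjusted p = 0.00404). ry differed by -4.25 and 0.47 (change 4.72, adjusted p = 7.46e-07), and CG4408 by -4.93 and 0.83 (change 5.75, adjusted p = 1.02e-08). The pair of plots of differences shows these genes off the diagonal in the dERR arrays. In hypoxia Cyp6a17 and ry lie near the diagonal, while CG4716 and CG4408 have smaller differences of the same sign. For CG4716 the genotypes overlapped in hypoxia, with 9.69 to 11.07 in sima mutants and 5.36 to 10.62 in w1118. Those of Cyp6a17, ry and CG4408 did not overlap there.

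**Figure D4:**
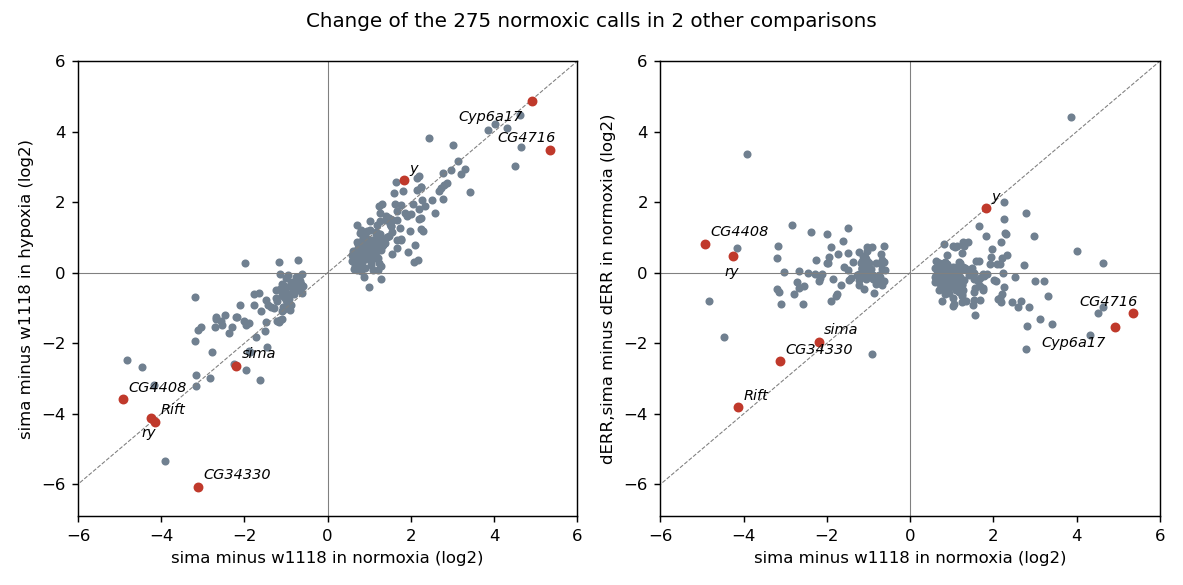
Difference of the 275 normoxic calls, sima minus w1118 in log2 units on the x axis, against sima minus w1118 in hypoxia (left) and dERR,sima minus dERR in normoxia (right). Each point is a probe set, the dashed line marks equal differences, and the labelled genes are in red. The points follow the line on the left and lie around 0 on the right, apart from genes such as sima, Rift and y.

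The levels in the dERR arrays were set against the sima and w1118 levels to describe where the genotypes without a difference lay. For each of the 275 calls, the normoxic means of dERR,sima and of dERR were placed on the side of the sima mean or of the w1118 mean, with the midpoint as the border. Both lay on the sima side for 106 (38.5%) and both on the w1118 side for 82 (29.8%). The means followed the sima genotype, with dERR,sima on the sima side and dERR on the w1118 side, for 39 (14.2%), and were the other way round for 48 (17.5%). Over all 18769 probe sets these shares were 43.5%, 23.1%, 18.4% and 15.1%, and no test was made.

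Both patterns held genes of the largest changes. Cyp6a17 averaged 8.59 in sima mutants and 3.68 in w1118, and it was 6.94 in dERR,sima and 8.47 in dERR larvae, both on the side of the sima mutants. CG4716 (9.68 in dERR,sima and 10.83 in dERR) and RFeSP (7.10 in dERR,sima and 7.34 in dERR) were likewise near the sima mutants, whose means were 10.09 and 6.33. ry, in contrast, averaged 2.98 in sima mutants and 7.23 in w1118, and it was 8.29 in dERR,sima and 7.82 in dERR larvae. The low level of ry was found in sima mutants and not in dERR,sima double mutants. The double mutants carry the same sima allele but also the dERR mutations on recombined chromosomes, and these differences cannot be told apart. CG4408 (8.79 in dERR,sima and 7.96 in dERR) and LysP (3.34 in dERR,sima and 4.32 in dERR) were also nearer to w1118.

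**Figure D5:**
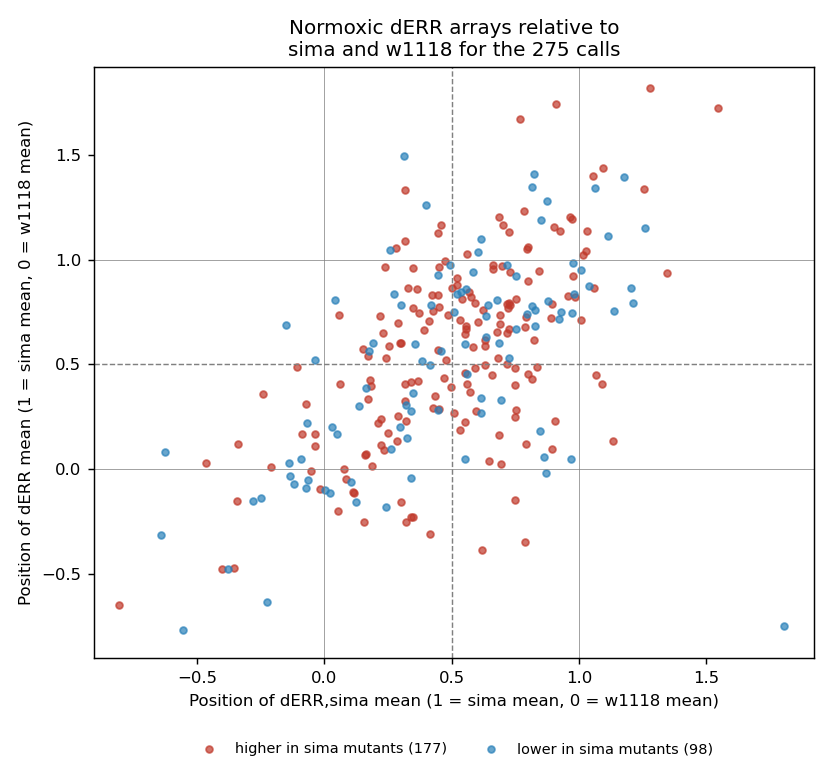
Position of the normoxic dERR,sima mean (x axis) and dERR mean (y axis) on a scale with no unit where the sima mean is 1 and the w1118 mean is 0, for the 275 calls. Red points are the 177 calls higher in sima mutants and blue points the 98 lower, and dashed lines mark the midpoint. Most points lie in the upper right (106) and lower left (82) fields, where dERR,sima and dERR are on the same side.

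Only 7 probe sets were called in the same direction in all 4 comparisons of sima loss, which share no arrays, and sima was 1 of them. Rift differed by -4.14 in normoxia and -4.23 in hypoxia against w1118, and by -3.81 and -3.38 in the dERR background. The probe set for CG33346 and Sid, where Sid encodes a stress-induced DNase, was 11.62, 11.66 and 11.78 in sima mutants and 7.92, 7.80 and 7.74 in w1118 (3.87, SE 0.43, adjusted p = 1.01e-05), and it differed by 4.05, 4.41 and 4.52 in the other 3 comparisons. y differed by 1.83, 2.62, 1.83 and 2.71, in the same order. CG34330 ran from 6.34 to 7.05 in sima mutants, against 9.13 to 10.58 in w1118 (-3.13, SE 0.46, adjusted p = 0.000301), and its differences in the other 3 were -6.07, -2.51 and -4.21. CG11470 (-0.91, -1.05, -2.32 and -2.33) and the unlisted probe set 1624393_at (2.27, 2.05, 1.13 and 1.28) completed the set. The normoxic call of CG11470 against w1118 was lost with any 1 array left out (adjusted p of up to 0.0557).

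The chromosome of the called genes was described with the order of genes in the RefSeq Release 6 annotation. The share of probe sets called was 1.14% on the X chromosome, 1.79% on 2L, 1.68% on 2R, 1.61% on 3L and 1.91% on 3R, which holds sima. On the small chromosome 4, 6 of 82 probe sets were called (7.32%), for 5 of 65 genes. They were Zip102B, both probe sets of Rnf11 (2.25 and 1.04), Syt7 (-1.09), CG1909 (-1.43) and Gat (-1.03), which encodes a GABA transporter, and the last 4 of these genes were chosen after their values were seen. In hypoxia 4 of the 82 were called between sima mutants and w1118, beside 4.56% of all probe sets. In the dERR background 0 of the 82 were called in normoxia, beside 0.245% of all probe sets, and 0 in hypoxia, beside 1.94%. With shares this small, 0 of 82 does not set chromosome 4 apart in those comparisons.

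Around sima, 4 of the 108 probe sets of the 50 nearest measured genes on either side were called, sima among them (3.70%, against 1.85% on the rest of 3R). Within 200 genes on either side 15 of 431 were called (3.48%, against 1.68% on the rest of 3R). For dERR,sima against dERR in normoxia the shares within 200 genes were 1.39% inside and 0.403% outside. No test was made of these shares, since neighbouring genes are not independent. The called genes nearest to sima were CG7912 (16 genes away, 2.25), Fer2LCH, a ferritin subunit gene (27 genes away, 0.66), and CDase, a ceramidase gene (38 genes away, 1.21). Fer2LCH was 13.61, 13.79 and 13.86 in sima mutants and 13.17, 12.94 and 13.17 in w1118. CDase lost its call with any 1 array left out, Fer2LCH without any of 5 single arrays and CG7912 without any of 4, with adjusted p values of up to 0.0366, 0.0385 and 0.0232. Farther out lay Gnpnat (60 genes away, -0.86), CG11470 (87 genes away), mesh, which encodes a midgut junction protein (108 genes away, 0.84), Nepl20 (151 genes away), salt (159 genes away, 2.30) and Rift (171 genes away). Gnpnat lost its call without any of 4 single arrays (adjusted p of up to 0.0357). mesh lost its call with any 1 array left out (adjusted p of up to 0.0699), after quantile normalization and with 16 added before the log2.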

How the data were processed

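The authors hybridised RNA from pools of whole late-L3 larvae to Affymetrix Drosophila Genome 2.0 arrays and summarised them with RMA, and they deposited a linear intensity for each probe set and array. Neither the version of RMA nor a joint normalization of the 26 arrays is stated in the sources used here. The log2 of each intensity was taken, 183 control probe sets were left out, and 18769 were tested with limma 3.58.1 in R 4.3.3, in 1 model of 8 groups. A call needed a 1.5-fold difference or more with an adjusted p (Benjamini-Hochberg) under 0.01, the threshold of the study's methods, whose own test was SAM. In the platform annotation 13646 of these probe sets have 1 gene, 402 have several and 4721 have none. In the lists a gene was read from its brightest probe set over the 26 arrays.

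The members and lists were chosen with earlier results of these data known. Genes are named where they belong to the HIF pathway, are among the 15 largest rises or falls listed for 1 gene, are up to 4 called members of a list (or 2 of the smallest p), are the 5 called genes nearest to sima on either side, are called in all 4 comparisons, or are the largest changes of probe sets listed for no gene or for several. All other names in the text were chosen after their values were seen. With 3 arrays against 3, an exact permutation test cannot go below 0.1, so none was used for single probe sets.

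Alternatives were other scalings, a filter, 16 added before the log2, other arrays in the fit, other variance estimates, other thresholds, SAM and each array left out. The fit was tested on simulated data in which few probe sets were changed. There an adjusted p under 0.01, without the fold rule, recovered 20.9% of 1.5-fold, 74.6% of 2-fold and 90.9% of 4-fold changes. The RefSeq Release 6 annotation gave chromosome arms and the order of genes. No coordinates are given, since the deposited files do not name the build behind their annotation.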

Additional observations from a re-analysis of the deposited data

Results flagged for a closer look

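Among the named probe sets, 36 had a difference of dERR,sima against dERR in normoxia that departed from that of sima against w1118, by the test of this departure in the shared model (at least 1.5-fold, adjusted p under 0.01). Values are the first difference minus the second, in log2 units, and the test contains the 6 arrays of the normoxic comparison. The departure was negative for CG4716 (-6.50), Cyp6a17 (-6.45), CG15255 (-6.06), CG14499 (-5.61), Cyp6a8 (-4.93), lncRNA:CR32368 (-4.86), Mctp (-4.44), 1640377_s_at (-4.38), 1634633_s_at (-4.33), Zip102B (-3.99), LysP (-3.85), lectin-37Da;lectin-37Db (-3.54), Nazo (-3.47), Cyp28a5 (-3.43), RFeSP (-3.25), Pepck1 (-3.05), CG7768 (-2.51), CG10559 (-1.93), GstT3 (-1.78), Ugt302C1 (-1.74), mesh (-1.45), CG11470 (-1.41), AOX3 (-1.28), 1624393_at (-1.14) and Alas (-1.06). It was positive for 1637055_s_at (7.28), CG4408 (5.75), CG8160 (4.87), ry (4.72), 1630728_a_at (4.20), CG9040 (4.02), 1640448_x_at (3.93), GstD3 (3.60), Alp7 (3.07), Nepl20 (2.73) and Cpr49Ab (2.50). Of these, Pepck1 and Cpr49Ab were not called between sima mutants and w1118, and the others were called there.

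For 4 probe sets the difference between sima mutants and w1118 departed between hypoxia and normoxia by the same rule, with values of hypoxia minus normoxia of -2.43 and -2.10 for Hph, -1.14 for Vhl and -1.08 for 1640377_s_at.

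Single arrays stood far from the other 4 in the hypoxic w1118 group, the only group large enough for this check, for 9 of the named probe sets. An array counted as far from the others when its gap to the nearest of them, as a share of the group's range, passed Dixon's critical value at the 95% level, a rule that by its construction picks about 1 group in 20 by chance. Replicate 4 stood apart for Ugt302C1 (8.82), salt (7.30), 1634633_s_at (8.43), 1640448_x_at (7.60) and btl (5.22). Replicate 1 stood apart for Cyp28a5 (11.22), Ald1 (12.15) and BomS6 (10.26), and replicate 5 for CG7768 (3.15). These arrays do not enter the normoxic means.

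Of the 183 control probe sets, which are outside the tests, 2 differed by more than 1 log2 unit between the genotypes in normoxia. One was 2.38, 2.35 and 2.46 in sima mutants, against 3.35, 4.21 and 5.02 in w1118 (-1.80), and the other was 2.81, 2.72 and 2.92 in sima mutants, against 5.30, 5.84 and 6.44 in w1118 (-3.04). Both were lower in every mutant array than in every control array.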

How the results depend on the processing

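Of 114 named probe sets, 62 were called, and 40 of these kept their call in every fit that left out 1 of the 6 arrays, while 22 lost it in at least 1. In fits that changed the scaling, filter, variance estimate or arrays, 10 of the 62 lost the call somewhere, each with its direction kept. The difference of sima itself was between -2.29 and -2.15 with 1 array left out. Directions turned only for genes that were not called. Centring each array on its median gave 0.0334 for PCB and 0.0515 for Cat. With 1 array left out, tgo lay between -0.0357 (without sima replicate 2) and 0.144, and Vhl between -0.0414 (without sima replicate 2) and 0.174, with -0.0207 without w1118 replicate 2.

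The counts moved more. With 1 array left out, 145 to 201 probe sets were called, 95 to 141 higher and 47 to 63 lower, and 104 to 118 were shared with hypoxia. The 6 arrays alone gave 1937 calls (411 higher, 1526 lower, 85 shared with hypoxia in the same direction). Array weights gave 2256 (624 higher, 1632 lower, 356 shared), and SAM with 20 label arrangements 2206 (508 higher, 1698 lower). An adjusted p under 0.05 gave 551 (321 higher, 230 lower, 273 shared). A fold of at least 2 gave 114 higher and 74 lower, and a mean log2 of at least 6 gave 137 higher and 59 lower of 8228 tested. Without the hypoxic w1118 arrays, a choice made after seeing the data, 496 were called (238 higher, 258 lower). The cause of these moves was not tested, apart from fewer probe sets or arrays where these were left out.

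A replicate block for the replicate numbers gave 469 calls (206 higher, 263 lower), of which 266 were among the 275. The deviations of samples with the same number correlated at 0.13, 0.21 and -0.09. The labels name no batch, and these 3 values cannot decide whether samples of the same number share more than that number. Windows in bases around sima and promoter motifs were not run. Depth of sequencing does not apply to arrays, and low levels are limited by signal over background, with the lowest 10% of probe sets under a log2 level of 2.84 to 2.94 on the 6 arrays.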
